A study of Rattus norvegicus with 12 samples.

Results

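The genes that code for connexins and pannexins, the subunits of channels that join cells to each other or open a cell to the space around it, were followed in the cerebral cortex of adult male Sprague Dawley rats with embolic stroke. The 8 genes described were chosen by name from these 2 families, with earlier results of these data known. They were the connexin genes Gja1, Gjb1, Gjb2, Gjb6, Gjc3 and Gjd2 and the pannexin genes Panx1 and Panx2, out of 17268 genes in the count table. There were 4 groups of 3 libraries. Sham rats had surgery without a clot. In Model rats a clot was placed in the middle cerebral artery and no treatment followed. The rt-PA group had the same clot and received recombinant tissue type plasminogen activator, a clot-dissolving enzyme, at 10 mg/kg, 6 h after the model was made. The rt-PA+Acu group had the clot, acupuncture at the GV26 and PC6 points at 2 h, and the same rt-PA at 6 h. No group had acupuncture without rt-PA, so the effect of acupuncture by itself cannot be told apart from that of the pair. Where in the cortex the tissue was cut in relation to the infarct, and at which hour RNA was taken, is not given in the sources used here, and neither is whether each library is 1 rat, so p-values measure the spread between these libraries.

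Connexins assemble in groups into a hemichannel in the cell membrane, and the hemichannels of neighbouring cells dock to form a gap junction, through which ions and small metabolites pass. In the cortex, Cx43 (Gja1) and Cx30 (Gjb6) join astrocytes into a network that spreads potassium, glucose and lactate. Cx32 (Gjb1) and Cx29 (Gjc3) belong to oligodendrocytes, Cx26 (Gjb2) to the meninges and to some astrocytes, and Cx36 (Gjd2) forms the electrical synapses of neurons. Pannexins form large-pore channels that do not dock with those of a neighbour, and Panx1 is known as a route by which ATP leaves a cell.

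Libraries are named by their group and replicate number, and levels are given as CPM, counts scaled to a common effective library size. Each library held between 11678450 and 13616935 counts. All 7 markers of cortical excitatory neurons had counts in every library, while their summed level was 905 to 1080 CPM in Model against 1825 to 2070 CPM in Sham. Markers of neurons of the striatum, a region under the cortex, summed to 293 to 645 CPM in Sham and to 127 to 180 CPM in the other 9 libraries, with all 6 detected everywhere, and their part in the differences from Sham was not tested. The Sham libraries and Model 3 stood apart from the other 8 libraries in the ribosomal protein gene Rpl39, which had 105 to 151 counts in Sham, 142 in Model 3 and 488 to 990 in the rest, and Model vs Sham was therefore also fitted with a term for this split, which rests on Model 3. For rt-PA and rt-PA+Acu against Sham, the split and the group cannot be told apart. In bulk tissue, fewer cells of a type and less RNA per cell cannot be told apart.

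A gene was called different between 2 groups when its adjusted p was under 0.05 and its absolute log2 fold change over 1, in edgeR's quasi-likelihood test over all genes tested with Benjamini-Hochberg adjustment, and all adjusted p-values are from this fit unless another is named. All 8 genes passed the filter on low counts in every comparison. In Model vs Sham, 6 of the 8 genes were called, with Gja1, Gjb2, Gjb6, Gjc3 and Panx2 lower in Model and Panx1 higher. Over all 12884 genes tested there, 21.5% were called in either direction, and the median log2 fold change was 0.01, against -1.57 over the 8. As the 8 were chosen with earlier results known, their median does not describe the 2 families. The 3 other connexin genes that could be tested there had a median of 0.765, with 2 higher and 1 lower in Model. With the term for the split of libraries, 5 of the 8 stayed called and Gjc3 did not. In rt-PA vs Model no gene of the 12941 tested was called, so the background was 0% and none of the 8 was called. That count of 0 stands beside 1284 genes at an unadjusted p under 0.05, among them Gjb2 and Panx1. With the fold threshold as well, 1.86% of genes passed at an unadjusted p, Gjb2 being the one member, and DESeq2 called 73 genes, among them Gjb2. The acupuncture comparison, rt-PA+Acu vs rt-PA, called 4 of the 8: Gja1, Gjb6 and Gjc3 were higher and Panx1 was lower in rt-PA+Acu, against a background of 15.3% called. Leaving out rt-PA 2, rt-PA 3 or rt-PA+Acu 1 left 2 called, Gja1 and Gjb6. In rt-PA+Acu vs Sham none of the 8 was called in edgeR or DESeq2, where 2.06% of all genes were called in edgeR. At an unadjusted p under 0.05, Gja1, Gjb6 and Panx2 passed there, among 2964 of the 12775 genes tested. With the fold threshold as well 1 of the 8, Gjb6, did, beside 4.56% of all genes.

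The acupuncture comparison shares its rt-PA libraries with rt-PA vs Model, and the remaining pairs of groups also share libraries with these. In rt-PA vs Sham, which shares the Sham libraries with Model vs Sham, 5 of the 8 were called, Gja1, Gjb6, Gjc3 and Panx2 lower and Panx1 higher in rt-PA, at a background of 22.6%; without Sham 1 the log2 fold change of Panx1 was 0.99, and without rt-PA 2 Gjb1 and Gjb2 were called as well. In rt-PA+Acu vs Model, Gja1, Gjb6 and Gjc3 were called higher and Panx1 lower in rt-PA+Acu, at a background of 14.5%. In that pair Gjb6 was lost without Model 2 (adjusted p = 0.0506), Gjc3 was lost without Model 1 (0.0528) or Model 2 (0.0589), and Gjb2 was called without Model 2 (0.0141) and under DESeq2.

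**Figure D1:**
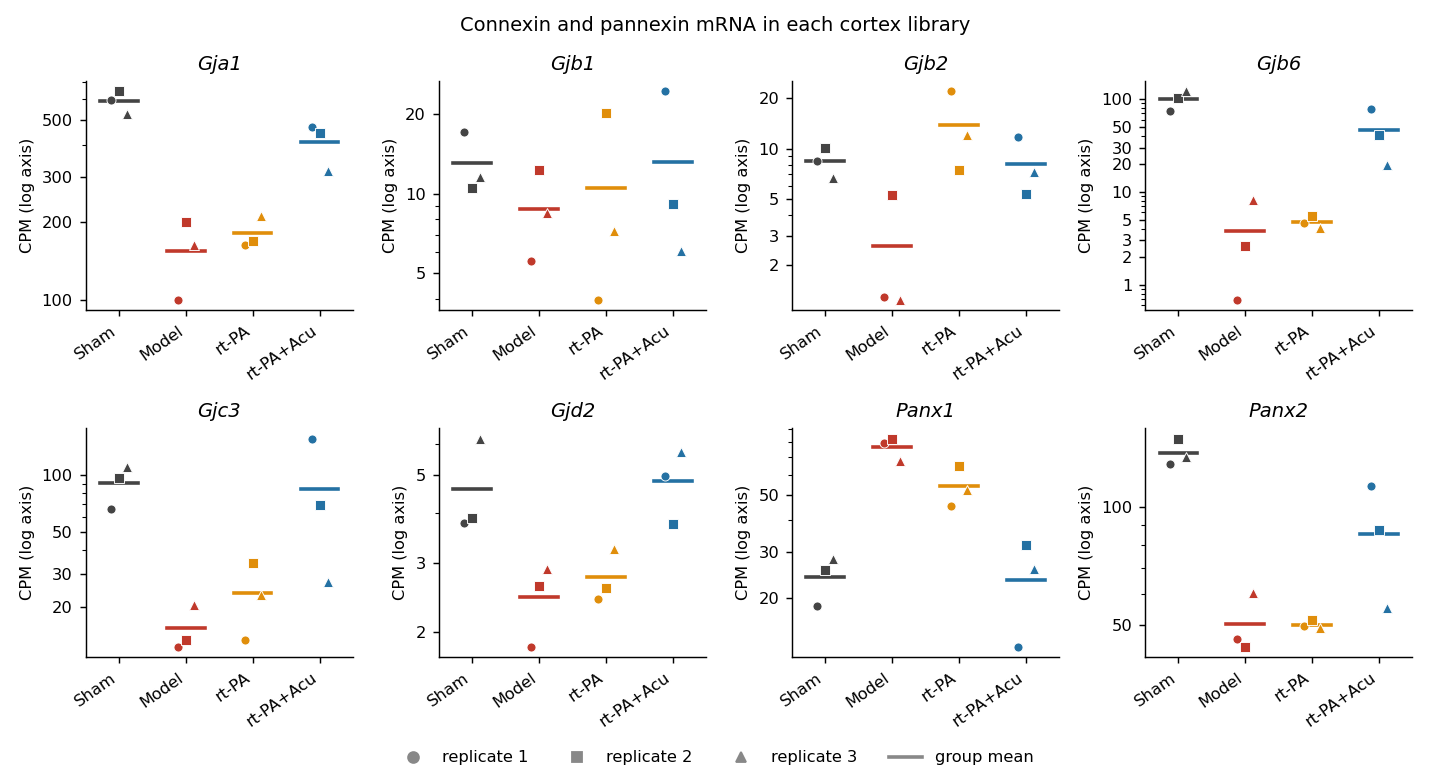
Level of each of the 8 genes in every library, in CPM on a log axis that differs between panels; symbols mark replicates 1 to 3 and bars the mean of the 3 libraries of a group. Gja1 and Gjb6 lie lowest in Model and rt-PA, with all 3 rt-PA+Acu libraries above both groups, while Panx1 lies highest in Model and rt-PA.

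Of the astrocyte connexins, Gja1 was measured at 594, 643 and 527 CPM in Sham, at 99.9, 201 and 164 CPM in Model, at 162, 169 and 212 CPM in rt-PA and at 469, 445 and 316 CPM in rt-PA+Acu. Every Sham library was above every rt-PA+Acu library, and these were above all libraries of the other groups, whereas Model and rt-PA overlapped. Groups did not overlap for 30.8% of all genes in rt-PA+Acu vs Sham, 51.1% in the acupuncture comparison and 50% in rt-PA+Acu vs Model. The Gja1 level fell 3.79-fold in Model against Sham (log2 fold change -1.92, SE 0.22, adjusted p = 0.000245). It was 2.26-fold higher in rt-PA+Acu than with rt-PA alone (log2 fold change 1.18, SE 0.18, adjusted p = 0.00401). Both calls held in each of the alternatives run. Against Sham the rt-PA+Acu level of Gja1 had a log2 fold change of -0.52, which did not pass (adjusted p = 0.103).

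Gjb6 had larger fold changes than Gja1. Its level was 73.9, 103 and 121 CPM in Sham and 0.687, 2.62 and 8.09 CPM in Model, where the 3 libraries held 9, 31 and 98 counts. In rt-PA it was 4.65, 5.46 and 4.13 CPM, and in rt-PA+Acu 77.9, 41.0 and 19.3 CPM. The Model and rt-PA libraries overlapped each other and lay below all others, and rt-PA+Acu 1 reached the Sham range while rt-PA+Acu 3 stayed well under it. The fall in Model was 26.2-fold (log2 fold change -4.71, SE 0.57, adjusted p = 0.000291), which ranked 91 among the 12884 genes by absolute fold change. Without Model 3 the log2 fold change was -5.92, and with the term for the split it was -3.62 (adjusted p = 0.00638). The combined treatment group was 9.67-fold above the group given rt-PA alone (log2 fold change 3.27, SE 0.48, adjusted p = 0.00361). The difference between rt-PA+Acu and Sham, a log2 fold change of -1.12 with an interval of -2.09 to -0.15, did not pass (adjusted p = 0.163), but was called without rt-PA+Acu 1 (-1.72, adjusted p = 0.0271).

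Other astrocyte genes moved with these connexins. Of the 10 astrocyte markers, 8 were called lower in Model than in Sham and 1, Gfap, higher, with a log2 fold change of 3.10. With acupuncture added to rt-PA, 6 of the 10 were called higher and none lower. The summed marker level, in which Gfap weighs heavily, was 6310 to 7358 CPM in Sham, 4833 to 6644 CPM in Model, 5183 to 6199 CPM in rt-PA and 6762 to 8225 CPM in rt-PA+Acu, and no marker was at 0 in any library. The log2 ratio of Gjb6 to that sum was -6.11 ± 0.34 in Sham and -11.2 ± 1.59 in Model, then -10.2 ± 0.32 for rt-PA and -7.56 ± 1.09 for rt-PA+Acu (SD, n = 3), a description added after the data were seen. For Gja1 the same ratio was -3.51 ± 0.10, -5.30 ± 0.28, -4.94 ± 0.07 and -4.21 ± 0.43. The sum was also taken without Gfap, a step added after the data were seen. It was then 5914 to 6944 CPM in Sham, 2348 to 2840 CPM in Model, 1968 to 2773 CPM in rt-PA and 3847 to 5295 CPM in rt-PA+Acu. Against that sum the log2 ratio of Gja1 was -3.43 ± 0.11 in Sham and -4.12 ± 0.44 in Model, then -3.66 ± 0.06 for rt-PA and -3.49 ± 0.12 for rt-PA+Acu, with group means closer together than with Gfap in the sum. That of Gjb6 was -6.02 ± 0.34, -10.04 ± 1.65, -8.91 ± 0.42 and -6.84 ± 0.78. What part the astrocyte content had in either result was not tested beyond this.

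The bases before the starts of Gja1 and Gjb6 and of Panx1, the gene that moved the other way, are shown to set the genes with called changes side by side. RefSeq gave start regions for all 8 genes on the GRCr8 assembly, which is not the mRatBN7.2 build of the counts. Each line gives the 250 bases before an annotated start, 5′ to 3′ on the strand of the gene, with matches to the motifs below in capitals; Gjb6 has a second annotated start, not shown.
Gja1 (chr20:36302314-36302563, plus strand): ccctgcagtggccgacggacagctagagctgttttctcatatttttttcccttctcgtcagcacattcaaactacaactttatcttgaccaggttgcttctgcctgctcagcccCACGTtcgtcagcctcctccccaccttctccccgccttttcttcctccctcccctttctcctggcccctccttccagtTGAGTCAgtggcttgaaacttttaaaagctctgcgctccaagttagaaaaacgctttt
Gjb6 (chr15:35408963-35409212, minus strand): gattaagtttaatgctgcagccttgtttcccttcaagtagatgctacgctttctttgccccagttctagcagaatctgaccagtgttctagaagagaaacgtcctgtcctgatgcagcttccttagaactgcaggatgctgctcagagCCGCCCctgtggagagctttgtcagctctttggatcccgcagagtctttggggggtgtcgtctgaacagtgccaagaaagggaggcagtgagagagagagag
Panx1 (chr8:20171201-20171450, minus strand): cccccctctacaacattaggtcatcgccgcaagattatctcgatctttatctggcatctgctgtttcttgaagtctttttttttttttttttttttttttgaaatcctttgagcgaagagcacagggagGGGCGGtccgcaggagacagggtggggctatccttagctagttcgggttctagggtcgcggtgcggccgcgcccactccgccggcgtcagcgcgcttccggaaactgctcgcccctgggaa
In all, 4 motifs were searched on both strands: the AP-1 site TGANTCA, the cyclic AMP response element TGACGTCA, the GC box GGGCGG and the core of the hypoxia response element, ACGTG or GCGTG. The Gja1 window held an AP-1 match 58 bases and a hypoxia core match 136 bases before the start, the latter read on the opposite strand as CACGT. Gja1 was the only one of the 8 genes with an AP-1 match, which 6.3% of 33469 windows of this length held. A GC box stood before 5 genes, Gjb2, Gjb6, Gjd2, Panx1 and Panx2, and in 30.5% of all windows. The hypoxia core stood before Gja1, Gjc3, Gjd2 and Panx2, and in 36.7% of all windows. No cyclic AMP element was in the windows of the 8 genes, and 1.6% of all windows held one. These matches describe the letters only.

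Gjb2, whose gene lies next to Gjb6 on chromosome 15, had another pattern. Its level was 8.46, 10.01 and 6.64 CPM in Sham, 1.30, 5.25 and 1.24 CPM in Model, 22.0, 7.47 and 12.1 CPM in rt-PA and 11.7, 5.32 and 7.24 CPM in rt-PA+Acu. All 3 Model libraries were below every other library, the closest being Model 2 at 5.25 and rt-PA+Acu 2 at 5.32 CPM, while Sham, rt-PA and rt-PA+Acu overlapped. Gjb2 fell 3.23-fold in Model (log2 fold change -1.69, SE 0.52, adjusted p = 0.0239), a call that was lost without Sham 1, Sham 2 or Model 1 (adjusted p = 0.0596, 0.0790 and 0.0579). In rt-PA vs Model its log2 fold change was 2.42 (SE 0.63), the largest of the 8 genes there, and the groups did not overlap, as for 15.9% of all genes; it did not pass in edgeR (adjusted p = 0.334) and did in DESeq2 (adjusted p = 0.00644). Its value in the acupuncture comparison was -0.78 (SE 0.43, adjusted p = 0.198), with an interval of -1.78 to 0.23.

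The markers of meninges and fibroblasts followed Gjb2 only in part. The 9 of 10 listed markers in the table summed to 64.4 to 171 CPM in Sham, 29.6 to 82.5 CPM in Model, 80.9 to 283 CPM in rt-PA and 75.0 to 171 CPM in rt-PA+Acu, and 7 of the 9 were above 0 in every library, Slc6a13 being at 0 in 1 library and Slc22a6 in 2. All 9 were lower in Model than in Sham, and 3 of them were called. In rt-PA vs Model all 7 that could be tested were higher in rt-PA, though none was called. Their median log2 fold change there was 2.02, beside 2.42 for Gjb2. In rt-PA vs Sham 2 were called higher (Col1a2 and Dcn) and 2 lower (Slc6a13 and Slc22a6), and in the acupuncture comparison 2 were called higher (Slc6a13 and Slc22a6) and 2 lower (Dcn and Foxc1). Slc6a13, a transporter of the meninges, had a mean of 7.02 CPM in Sham, 0.28 CPM in Model, 0.09 CPM in rt-PA and 3.23 CPM in rt-PA+Acu, so it was near 0 in rt-PA, where Gjb2 was highest. In each of the 4 groups, the library with the most Gjb2 was also the one with the highest sum. The log2 ratio of Gjb2 to this sum was -3.77 ± 0.73 in Sham and -4.49 ± 0.51 in Model, then -3.69 ± 0.26 for rt-PA and -3.74 ± 0.18 for rt-PA+Acu (SD, n = 3). The gene whose pattern over the libraries lay nearest to that of Gjb2 was Lum, a collagen-binding proteoglycan of fibroblasts and itself on that list. What part the meninges in a sample had in the Gjb2 level was not tested beyond this.

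Gjc3 and Gjb1 are the oligodendrocyte connexins among the 8. Gjc3 was at 66.4, 97.0 and 111 CPM in Sham, 12.4, 13.5 and 20.6 CPM in Model, 13.5, 34.3 and 23.4 CPM in rt-PA and 156, 69.5 and 27.2 CPM in rt-PA+Acu. All Sham libraries were above all Model and rt-PA libraries, but rt-PA+Acu ran from above the Sham range down into that of rt-PA. The fall of Gjc3 in Model was 5.87-fold (log2 fold change -2.55, SE 0.24, adjusted p = 9.32e-05), and with the term for the split it no longer passed (-2.15, adjusted p = 0.0734). The rise in the acupuncture comparison, 3.54-fold (log2 fold change 1.82, SE 0.60), just passed at an adjusted p of 0.0495 and was lost in 5 of the 6 fits that left out 1 library, with adjusted p-values up to 0.158 without rt-PA+Acu 1, where the log2 fold change was 1.03; it stayed without rt-PA+Acu 3. On library size alone it was also lost (adjusted p = 0.0503).

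Gjb1 was at 17.2, 10.5 and 11.6 CPM in Sham, 5.57, 12.3 and 8.42 CPM in Model, 3.95, 20.3 and 7.23 CPM in rt-PA and 24.4, 9.16 and 6.04 CPM in rt-PA+Acu. Its groups overlapped in every pair. In Model vs Sham the log2 fold change was -0.58 (interval -1.28 to 0.12, adjusted p = 0.143), and it was 0.33 in the acupuncture comparison (interval -1.24 to 1.904, adjusted p = 0.725). The latter turned in direction without rt-PA 1 or rt-PA+Acu 1, and rt-PA vs Sham was called lower without rt-PA 2 (-1.24, adjusted p = 0.0139).

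Myelin genes varied widely among the libraries of a group. The 10 oligodendrocyte markers, none at 0 in any library, summed to 12668 to 18897 CPM in Sham, 1822 to 9052 CPM in Model, 2873 to 12347 CPM in rt-PA and 3514 to 22565 CPM in rt-PA+Acu. The library with the highest sum of its group also had the most Gjc3 in 4 of 4 groups, but the most Gjb1 only in rt-PA and rt-PA+Acu. Sham 1, with the most Gjb1 of Sham, had the lowest sum of that group, and in Model the most Gjb1 was in Model 2 and the highest sum in Model 3. Of the 10 markers, 8 were called lower in Model than in Sham. In the acupuncture comparison none was called, but all 10 were higher in rt-PA+Acu, at a median log2 fold change of 0.946. The log2 ratio of Gjc3 to this sum was -7.45 ± 0.11 in Sham and -8.08 ± 0.80 in Model, then -7.84 ± 0.60 for rt-PA and -7.09 ± 0.08 for rt-PA+Acu (SD, n = 3). For Gjb1 it was -10.3 ± 0.63, -8.94 ± 0.98, -9.25 ± 0.26 and -9.68 ± 0.43, lowest in Sham. The part of the myelin content of each library in these levels was not tested.

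**Figure D2:**
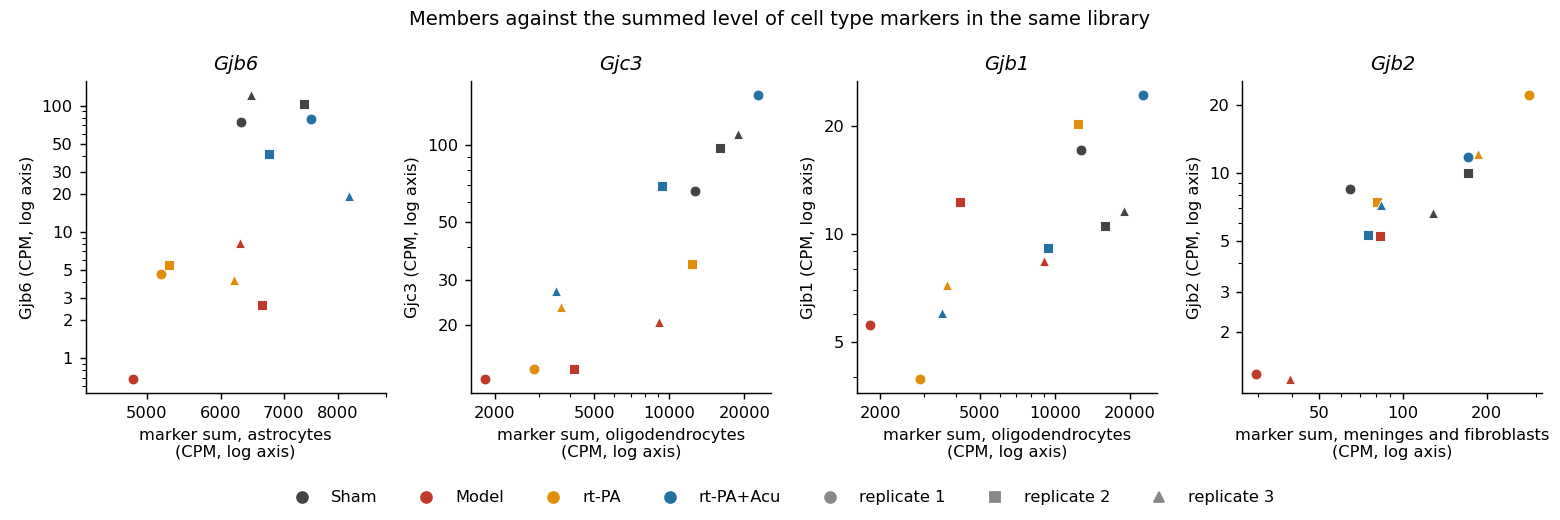
Level of 4 connexin genes against the summed level of cell type markers in the same library, both in CPM on log axes; colours mark groups and symbols replicates. Gjb2 rises with the meningeal sum and Gjc3 with the myelin sum across libraries. Gjb1 follows the myelin sum more loosely, as the library with the highest sum has the most Gjb1 in only 2 of 4 groups. Gjb6 spans 0.687 to 121 CPM over astrocyte sums of 4833 to 8225 CPM. Gfap weighs heavily in these astrocyte sums. Without Gfap, which is not plotted here, they run from 1968 to 6944 CPM and are lowest in the Model and rt-PA libraries, as Gjb6 is.

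Gjd2, the neuronal connexin, had low counts in every library, between 24 and 77. It was at 3.79, 3.90 and 6.20 CPM in Sham, 1.83, 2.62 and 2.89 CPM in Model, 2.43, 2.59 and 3.25 CPM in rt-PA and 4.97, 3.75 and 5.75 CPM in rt-PA+Acu. The Sham and rt-PA+Acu libraries overlapped and lay above the Model and rt-PA libraries, which also overlapped. The log2 fold change in Model vs Sham was -0.91 (SE 0.32, adjusted p = 0.0417), under the fold threshold, and at any fold 54.0% of genes had an adjusted p under 0.05 there. Over the alternatives run it was between -1.04 and -0.65, with adjusted p-values from 0.021 to 0.258, and without Model 3 Gjd2 was called. The acupuncture comparison gave 0.81 (SE 0.28, adjusted p = 0.0587), with groups that did not overlap, as for 51.1% of all genes; in Model vs Sham 63.6% of genes had groups that did not overlap. The 9 neuronal markers summed to 7368 to 8082 CPM in Sham and 6386 to 6463 CPM in Model, then to 5090 to 6271 CPM in rt-PA and 6155 to 8778 CPM in rt-PA+Acu. They did not move together: in Model vs Sham 4 were higher and 5 lower, at a median log2 fold change of -0.04. Of these, 2 were called lower and none higher. In the acupuncture comparison 6 were higher, 1 of them called, and 3 were lower. The log2 ratio below is therefore to a mixed sum. The log2 ratio of Gjd2 to that sum was -10.7 ± 0.34 in Sham and -11.4 ± 0.34 in Model, then -11.1 ± 0.17 for rt-PA and -10.7 ± 0.57 for rt-PA+Acu (SD, n = 3).

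The pannexin genes moved in opposite directions. Panx1 was at 18.5, 25.7 and 28.2 CPM in Sham, 79.3, 82.8 and 67.7 CPM in Model, 45.3, 64.7 and 52.4 CPM in rt-PA and 12.9, 31.9 and 25.7 CPM in rt-PA+Acu. The Model libraries were above all rt-PA libraries, and these above all Sham and rt-PA+Acu libraries, which overlapped. Panx1 rose 3.19-fold in Model (log2 fold change 1.67, SE 0.16, adjusted p = 0.000103), and it held in all alternatives run. In rt-PA vs Model the log2 fold change was -0.50 (SE 0.15), which did not pass (adjusted p = 0.374). Its level was 2.30-fold lower in rt-PA+Acu than with rt-PA alone (log2 fold change -1.20, SE 0.31, adjusted p = 0.0215). That call was lost without rt-PA 2 (adjusted p = 0.0565) or rt-PA 3 (0.0554) and fell under the fold threshold without rt-PA+Acu 1, the lowest library (-0.90, adjusted p = 0.0226). Against Sham, the level in rt-PA+Acu had a log2 fold change of -0.04, with an interval of -0.75 to 0.68.

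Panx2 was at 128, 149 and 134 CPM in Sham, 46.1, 43.9 and 60.4 CPM in Model, 49.8, 51.4 and 49.0 CPM in rt-PA and 113, 87.2 and 55.3 CPM in rt-PA+Acu. Every Sham library was above all others, and rt-PA+Acu 3 lay within the Model range. Panx2, which is found mainly in the nervous system, fell 2.72-fold in Model (log2 fold change -1.45, SE 0.13, adjusted p = 8.24e-05). With acupuncture added, the log2 fold change against rt-PA was 0.76 (SE 0.23, adjusted p = 0.0373), under the fold threshold, where 34.8% of genes had an adjusted p under 0.05; without rt-PA+Acu 3 it was 1.00 and passed, and without any other library its adjusted p was over 0.05. Against Sham it was -0.69 (SE 0.22, adjusted p = 0.112), with groups that did not overlap, as for 30.8% of all genes, and 5.10% of genes had an adjusted p under 0.05 in that comparison.

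**Figure D3:**
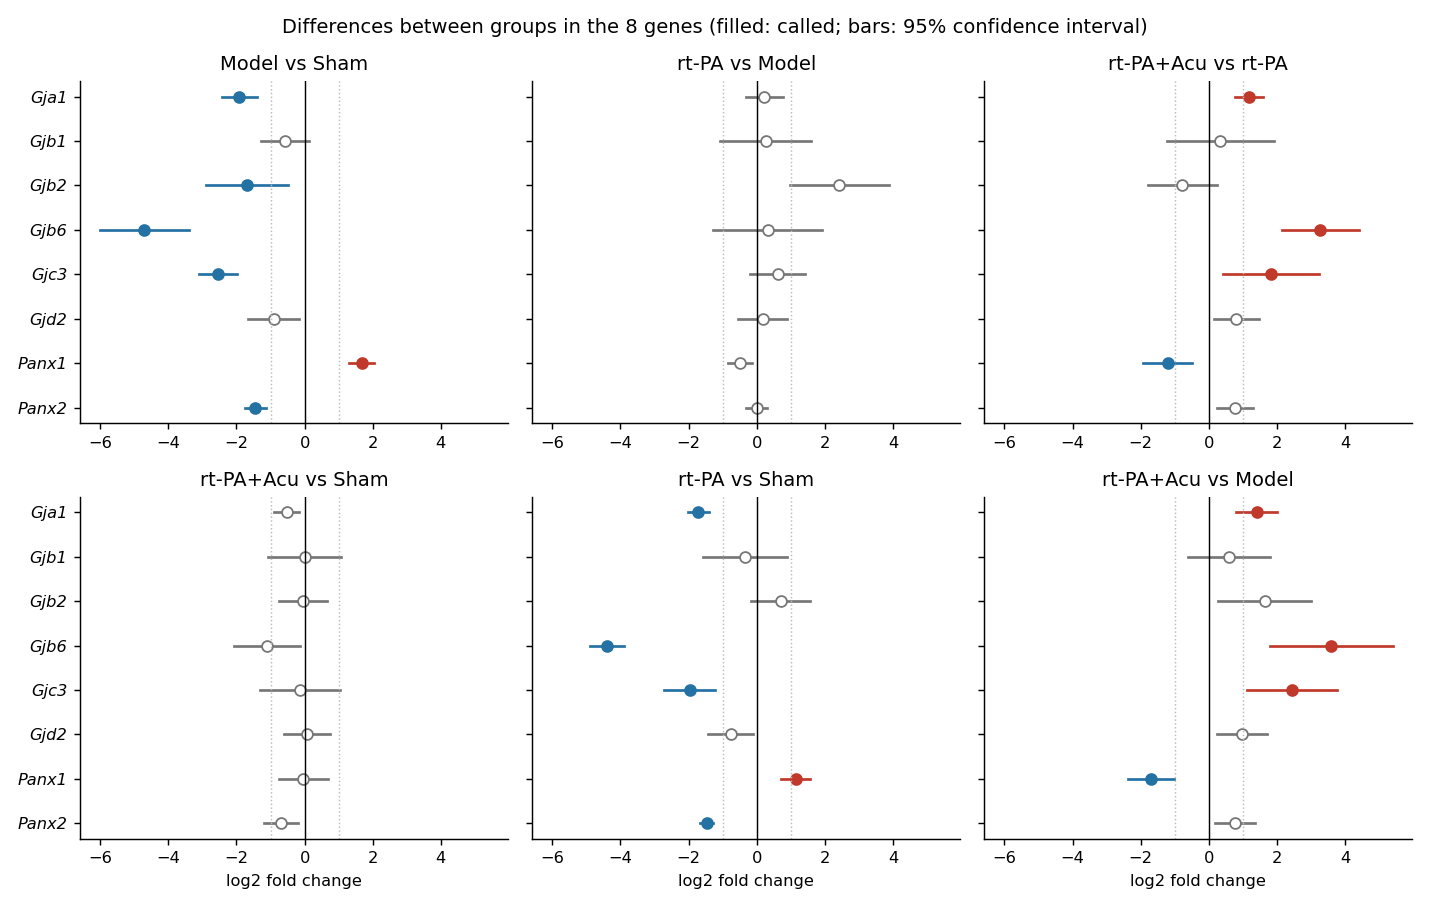
Log2 fold change of the 8 genes in the 6 pairs of groups, first group over second; points are the fitted values, bars their 95% confidence intervals, filled points genes that were called and dotted lines the fold threshold of 1. Gja1, Gjb6 and Gjc3 lie below 0 in Model vs Sham and above 0 in the acupuncture comparison, Panx1 does the opposite, and no gene is called in rt-PA+Acu vs Sham.

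Ratios of 2 members within a library do not depend on the scaling of libraries, and they show how unequally the genes moved. The ratio of Panx1 to Panx2 counts was 0.144 to 0.210 in Sham, 1.12 to 1.88 in Model, 0.909 to 1.26 in rt-PA and 0.114 to 0.466 in rt-PA+Acu, so that no Sham or rt-PA+Acu library overlapped with the Model and rt-PA libraries. The ratio of Gja1 to Gjb6 counts was 4.37 to 8.04 in Sham, 20.2 to 145 in Model, 30.9 to 51.4 in rt-PA and 6.02 to 16.3 in rt-PA+Acu, again without overlap between these pairs of groups. The ratio of Gjb2 to Gjb6 counts was 0.055 to 0.115 in Sham and 1.37 to 4.73 in rt-PA, and in Model it was 1.89 and 2.00 in replicates 1 and 2 but 0.153 in replicate 3, inside the 0.130 to 0.375 of rt-PA+Acu. Gjb1 to Gjc3 counts gave 0.105 to 0.258 in Sham, 0.410 to 0.906 in Model, 0.294 to 0.590 in rt-PA and 0.132 to 0.223 in rt-PA+Acu. As counts are not scaled to gene length, these ratios are read between groups and not as levels of one gene against another.

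**Figure D4:**
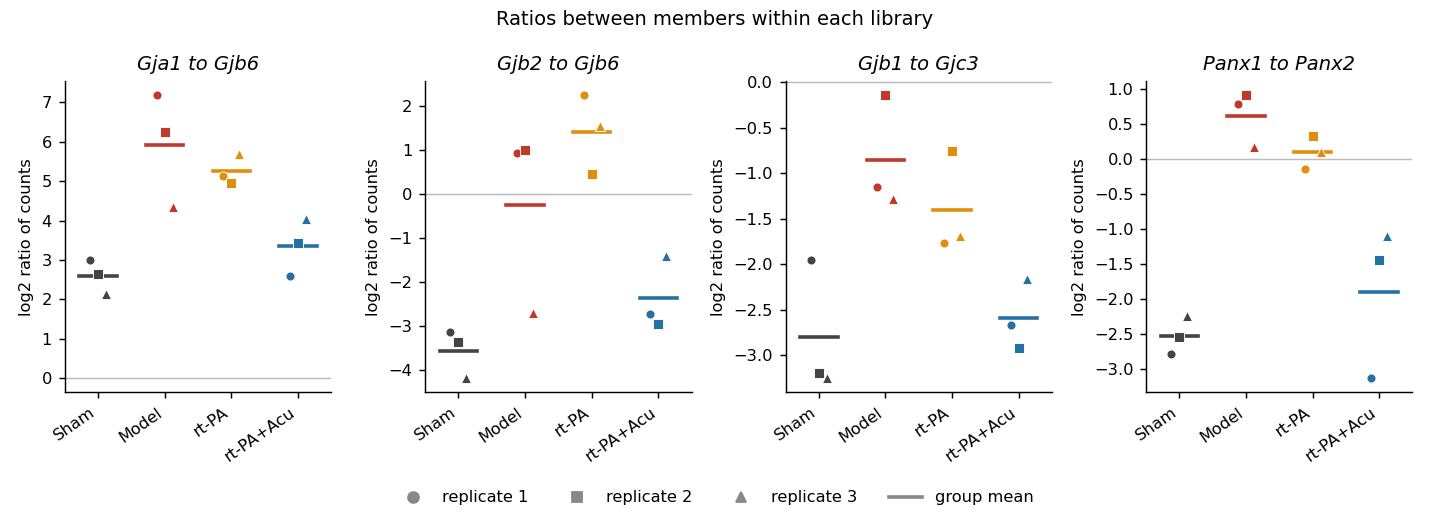
Log2 ratio of the counts of 2 members in the same library, by group; symbols mark replicates and bars the mean of 3 log2 ratios. In the Panx1 to Panx2 panel Model and rt-PA lie between -0.14 and 0.91 and the other 2 groups between -3.13 and -1.10, while in the Gjb2 to Gjb6 panel Model replicate 3 at -2.71 lies apart from the other Model libraries.

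To see which genes ran alongside each member, centred log2 CPM values were compared over the 12 libraries among 12743 genes with a mean of at least 1 CPM. Nearest to Gja1 was Slc27a1, a fatty acid transporter, at a mean absolute difference of 0.11 on the log2 scale, and Eda at 0.17. Nearest to Gjb6 were Tril at 0.35 and the claudin gene Cldn10 at 0.44. Gjc3 lay nearest to Aspa, which breaks down N-acetylaspartate in oligodendrocytes, at 0.275 and to Gpr37 at 0.284. Gjb1 lay nearest to Pls1 at 0.26 and St18 at 0.29, Gjb2 to Lum at 0.27 and Colec12 at 0.36, and Gjd2 to Mkx at 0.15 and Jade1 at 0.16. Nearest to Panx1 were Dok5 at 0.21 and Uck2 at 0.22, and nearest to Panx2 were Dbi at 0.11, which codes for the acyl-CoA binding protein, and Acsbg1 at 0.12. Among the 8 genes themselves, Gja1 and Panx2 were the closest pair at 0.31 and Gjb6 and Panx1 the farthest at 2.79. Among the 12743 genes, Panx2 ranked only 356 by nearness to Gja1. The median difference over all genes was 0.806 for Gja1 and 2.058 for Gjb6, so the distances of different members are on unlike scales.

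Of 13 other connexin and pannexin genes examined here, 3 had enough counts to be tested in the 3 comparisons of the treatment series, Gja4, Gja5 and Gjc1. Gja4 and Gja5 code for Cx37 and Cx40, the connexins of blood vessel walls. Gja4 was at 4.35, 3.90 and 3.23 CPM in Sham, 5.50, 5.59 and 10.8 CPM in Model, 9.23, 5.82 and 9.59 CPM in rt-PA and 2.53, 1.48 and 1.72 CPM in rt-PA+Acu. All its rt-PA+Acu libraries were below every other library, and Gja4 was lower there than with rt-PA alone (log2 fold change -2.10, SE 0.32, adjusted p = 0.00397). Gja5 was at 0.886, 1.68 and 1.22 CPM in Sham, 0.992, 1.10 and 4.38 CPM in Model, 8.46, 3.38 and 4.72 CPM in rt-PA and 0.590, 0.436 and 0.821 CPM in rt-PA+Acu. It too was lower there than with rt-PA alone (log2 fold change -3.13, SE 0.47, adjusted p = 0.00383), on 5 to 11 counts a library. The 7 endothelial markers in the table summed to 302 to 436 CPM in rt-PA and 106 to 116 CPM in rt-PA+Acu, with 4 of the 7 called lower and none at 0, and their part in these differences was not tested.

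Gjc1, which codes for Cx45, was not called in any of these comparisons, with log2 fold changes of -0.12 in Model vs Sham and -0.61 in the acupuncture comparison. In Model vs Sham, Gja4 had a log2 fold change of 0.93 (adjusted p = 0.0361), under the fold asked of a call. In all, none of the 3 genes was called in Model vs Sham or in rt-PA vs Model. In the acupuncture comparison 2 were called lower, at a background of 15.3%. In rt-PA vs Sham 2 of the 3 genes tested were called higher in rt-PA, where 22.6% of all genes were called. In rt-PA+Acu vs Model 1 of 3 was called lower, at a background of 14.5%.

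**Figure D5:**
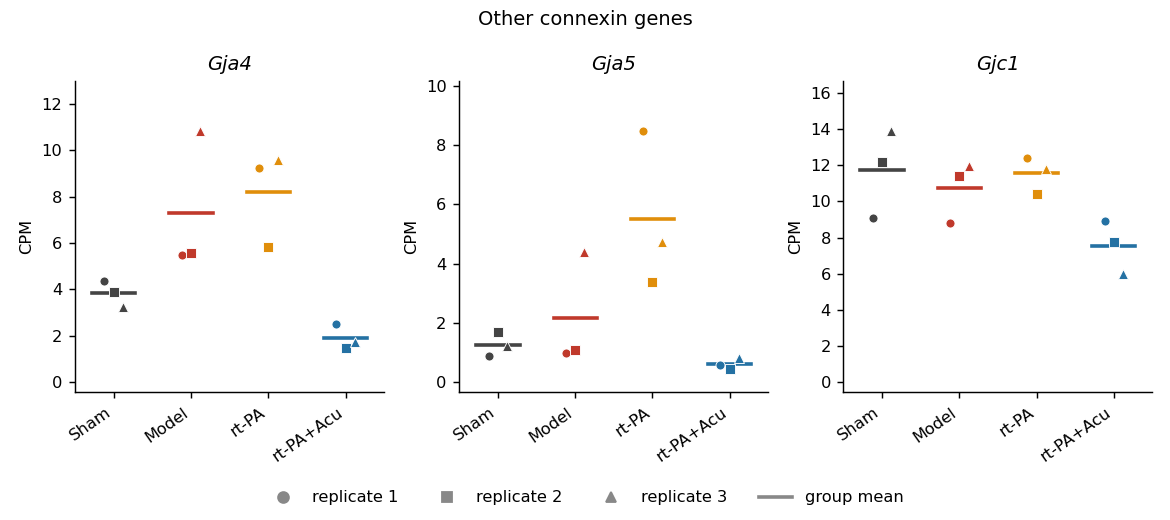
Level of 3 other connexin genes, in CPM on linear axes that differ between panels; symbols mark replicates and bars group means. Gja4 and Gja5 lie higher in the 3 rt-PA libraries than in the 3 rt-PA+Acu libraries.

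Genes whose products bind, phosphorylate or move connexins were counted in the same fits. Of 18 partners and regulators tested, 1 was called higher and 4 lower in Model vs Sham, where 21.5% of all genes were called. The list median log2 fold change was -0.31 against 0.01 over all genes. Ccn3, a secreted protein that binds Cx43, had a log2 fold change of -3.16 in Model (adjusted p = 1.69e-05) and of 2.39 in the acupuncture comparison (adjusted p = 0.0127). Camk2a, a calcium-dependent kinase that acts on Cx36 among many other proteins, was at -2.30 in Model (adjusted p = 6.02e-06) and at 1.75 in the acupuncture comparison (adjusted p = 0.00650). Mapk3, a kinase that phosphorylates Cx43, was at -1.33 in Model vs Sham (adjusted p = 0.000335). Mapk7, named here because it was the only gene of the list called higher in Model, was at 1.04 (adjusted p = 0.00294). The acupuncture comparison called 2 of the 18 higher and 1 lower, at a background of 15.3%.

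Of 5 tested partners of the Panx1 channel, 2 were called higher in Model and none lower, at a background of 21.5% of all genes. The list median log2 fold change was 0.065. Ripk3, a kinase of necroptosis, was at 2.43 (adjusted p = 0.000219) and Pycard, the inflammasome adaptor, at 1.27 (adjusted p = 0.0154). Ripk3 was called lower in the acupuncture comparison, at -2.39 (adjusted p = 0.0163), and none of the 5 was called in rt-PA+Acu vs Sham. Markers of infiltrating myeloid cells summed to 58.9 to 81.3 CPM in Sham, 247 to 358 CPM in Model, 343 to 556 CPM in rt-PA and 61.6 to 131 CPM in rt-PA+Acu, and their part was not tested. Of the 7 myeloid markers, 5 were called higher in Model than in Sham and 6 lower in the acupuncture comparison.

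Of 9 tested genes of other large-pore channels, 1 was called higher and 2 lower in Model vs Sham, at a background of 21.5%. The list median was -0.46. Calhm2, which codes for a calcium homeostasis modulator channel, was at -2.83 (adjusted p = 0.000316), and Ttyh1, a member of the tweety family, at -1.33 (adjusted p = 3.25e-05). Slco2a1, a prostaglandin transporter and part of a large anion channel, was at 2.64 (adjusted p = 0.000458). All 3 were called the other way in the acupuncture comparison, at 1.53, 1.01 and -3.38, where 15.3% of all genes were called. None of the 4 volume-regulated Lrrc8 genes tested was called in either comparison.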

How the data were processed

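Total RNA of cerebral cortex was enriched for poly(A), made into strand-marked libraries and sequenced as paired reads by the authors, whose processing notes name STAR 2.7.10a, Salmon 1.9.0 and featureCounts 2.0.1 and the build mRatBN7.2. Whether molecular identifiers or strand were used in counting is not given in the sources used here, nor is the annotation release. The deposited table holds whole read counts per gene, not normalized, for 12 libraries of 4 groups. CPM was computed with TMM library sizes in edgeR 4.0.16, which also gave all tests (R 4.3.3; quasi-likelihood; filterByExpr; each pair of groups on its own 6 libraries). DESeq2, which the authors used in another version, was the alternative tool, here at version 1.42.0. Standard errors are the log2 fold change over the square root of F. On simulated counts the test was checked to recover known changes. A promoter window was the 250 bases before an annotated start. The members and gene lists were chosen with earlier results of these data known. Some genes of these lists are not reported here and were left out of their counts and medians. All 8 members are named in each comparison; from each other list at most 4 genes with values, those with the largest absolute log2 fold change among genes called in Model vs Sham or rt-PA+Acu vs rt-PA, and for each member the 2 genes nearest in centred log2 CPM (prior count 2). Gjc1 and single cell type markers named for a count were chosen after their values were seen. Gjc3, Gjd2 and Panx2 each overlap 1 other annotated gene, so reads there may be shared. Counts of 3 or fewer are near the detection floor, 0.208 to 0.262 CPM.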

Additional observations from a re-analysis of the deposited data

How the results depend on the processing

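The members' fold changes were refitted under DESeq2, other scalings and filters, a fit over all 12 libraries, a replicate block and with each library left out, with Model vs Sham also fitted with a term for the split of libraries. Of 629 values, 535 kept their direction and their side of an adjusted p of 0.05, 46 lost and 17 gained an adjusted p under 0.05, and 31 turned direction. The fold threshold was not part of this count. A call lost by fold alone, such as that of Panx1 in rt-PA+Acu vs rt-PA without rt-PA+Acu 1, is therefore among the values kept. In Model vs Sham 5 to 7 members were called with 1 library left out. The number of members called in rt-PA vs Model was 0, but 1 (Gjb2) under DESeq2 and 1 at an unadjusted p with the fold threshold; in rt-PA+Acu vs Sham it was 0, but 1 at an unadjusted p with the fold threshold, and 0 to 1 with 1 library left out; in rt-PA+Acu vs rt-PA it was 2 to 5 with 1 library left out. Replicate numbers are not stated to mark shared animals or batches, and same-numbered libraries did not deviate together in every pair of groups (r from -0.254 to 0.146), although in Model vs Sham all 6 libraries correlated best with their own number. With the replicate block, rt-PA+Acu vs Model had 2 members called (Gja1 and Panx1) in place of 4, the Gjc3 call of rt-PA+Acu vs rt-PA was lost at an adjusted p of 0.128, and Gjb1 in rt-PA+Acu vs Sham turned to -0.19. With all libraries kept, the other turns of direction lay near 0: Panx2 in rt-PA vs Model was -0.004 under DESeq2 and under DESeq2's size factors, 0 without the filter and -0.002 in the fit over all libraries, and Panx1 in rt-PA+Acu vs Sham was 0.001 on library size alone. With 1 library left out, log2 fold changes in rt-PA vs Model ranged from -0.008 to 0.46 for Gja1, -0.65 to 0.65 for Gjb1, -0.18 to 1.52 for Gjb6, -0.003 to 0.30 for Gjd2 and -0.086 to 0.15 for Panx2. In rt-PA+Acu vs Sham they ranged from -0.79 to 0.35 for Gjb1, -0.41 to 0.17 for Gjb2, -0.92 to 0.29 for Gjc3, -0.09 to 0.33 for Gjd2 and -0.31 to 0.26 for Panx1, and for Gjb1 from -0.46 to 1.24 in rt-PA+Acu vs rt-PA, -1.24 to 0.059 in rt-PA vs Sham and -0.20 to 0.94 in rt-PA+Acu vs Model. Filtering at 10 counts in every library left Gjb6 out of the comparisons with Model, so it has no value there. The cause of these shifts was not tested, beyond the smaller number of libraries.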
